A study of Mus musculus with 2 samples.

Results

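The genes described are 8 chemokine and chemokine receptor genes of monocyte traffic, chosen by symbol from the 32285 genes counted: the ligands Ccl2, Ccl7, Ccl12, Ccl8, Ccl6 and Ccl9 and the receptors Ccr2 and Cx3cr1. All 8 symbols were found and all 8 had UMIs (unique molecular identifiers, each marking 1 captured RNA molecule) in both libraries. The data are droplet single-cell RNA counts of leukocytes, sorted as CD45-positive from tumours that B16F10 cells, a mouse melanoma line, had formed under the skin. All mice are labelled wild type and had been given macrophages grown from bone marrow (BMDMs), which were untreated for the control library and exposed to IL-4 for the IL4 library. Each group is 1 library, so no difference has a replicate check and no test was run. The treatment label sets the groups, whereas the protocol field gives IL-4 treatment for both. Strain, age and how many animals went into a library are not stated in the labels used, and transferred and host macrophages cannot be told apart.

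Chemokines are small secreted proteins that bind G protein-coupled receptors and steer leukocytes along their gradients. Ccl2, Ccl7 and Ccl12 are ligands of Ccr2, the receptor by which inflammatory monocytes leave the bone marrow and enter tissues, and Ccl8 belongs to the same monocyte chemoattractant group. Ccl6 and Ccl9 are rodent chemokines that act on Ccr1, and Cx3cr1, the receptor of the membrane-bound chemokine Cx3cl1, marks patrolling monocytes and many tissue macrophages. In tumours, Ccl2 and Ccr2 are best known for bringing in the monocytes from which many tumour macrophages arise.

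The 6 ligand genes lie in 2 groups on chromosome 11 (GRCm38, the assembly of the mm10 build). The plus-strand genes Ccl2 (11:82035571-82037453), Ccl7 (11:82045712-82047525), Ccl12 (11:82101845-82103400) and Ccl8 (11:82115185-82116799) span 81.2 kb, and the minus-strand genes Ccl9 (11:83572919-83578636) and Ccl6 (11:83587882-83593087) span 20.2 kb, 1456 kb further on. Ccr2 (9:124101950-124113557, plus strand) and Cx3cr1 (9:119901616-120069879, minus strand) lie on chromosome 9. The 250 bases before the start of 4 ligand genes follow, from RefSeq's GRCm38.p6 annotation, to show 2 neighbours of the Ccl2 group, which were higher in the IL4 macrophage-like barcodes, beside the Ccl9 and Ccl6 pair, which was lower there. The sequence source used has an entry for 6 of the 8 genes and none for Ccl2 or Ccl7, of which Ccl7 had the largest ratio. Of the 2 neighbours shown, Ccl8 differed less than Ccl12, and its direction was not the same in every subset of barcodes. Capitals mark matches of the motifs searched, 5′ to 3′ on the gene's strand.
Ccl12 (chr11:82101595-82101844, plus strand): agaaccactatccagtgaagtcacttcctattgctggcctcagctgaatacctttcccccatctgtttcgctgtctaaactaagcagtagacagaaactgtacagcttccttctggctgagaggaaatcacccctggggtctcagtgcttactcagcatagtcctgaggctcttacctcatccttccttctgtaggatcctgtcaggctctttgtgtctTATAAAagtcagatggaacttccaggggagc
Ccl8 (chr11:82114935-82115184, plus strand): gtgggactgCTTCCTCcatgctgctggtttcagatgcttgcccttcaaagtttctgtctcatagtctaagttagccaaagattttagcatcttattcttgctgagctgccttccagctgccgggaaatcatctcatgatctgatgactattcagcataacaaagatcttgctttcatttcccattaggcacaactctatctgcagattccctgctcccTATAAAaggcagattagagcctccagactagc
Ccl9 (chr11:83578637-83578886, minus strand): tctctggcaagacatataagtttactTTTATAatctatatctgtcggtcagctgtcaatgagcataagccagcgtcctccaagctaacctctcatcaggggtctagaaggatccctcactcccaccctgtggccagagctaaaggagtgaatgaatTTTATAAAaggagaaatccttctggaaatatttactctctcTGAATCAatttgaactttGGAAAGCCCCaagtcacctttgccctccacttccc
Ccl6 (chr11:83593088-83593337, minus strand): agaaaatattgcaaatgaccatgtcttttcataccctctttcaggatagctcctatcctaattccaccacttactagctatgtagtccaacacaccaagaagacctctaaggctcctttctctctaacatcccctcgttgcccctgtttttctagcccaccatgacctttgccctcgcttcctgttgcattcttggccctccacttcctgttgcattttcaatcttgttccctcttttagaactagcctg

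The motifs, searched on both strands, were a TATA box (TATAAA), NF-kB (GGG and CC with any 5 bases between), AP-1 (TGANTCA), PU.1 (GAGGAAG), an interferon response element (GAAA and GAAA with any 2 bases between), STAT (TTCNNNGAA), STAT6 (TTC and GAA with any 4 bases between) and C/EBP (TTGCNNAA). A TATA match lay 31 to 26 bases before the start of Ccl12 and 32 to 27 bases before that of Ccl8, and 12.4% of the 32851 windows of this length held one. Ccl8 also held a PU.1 match (10.6% of windows). Ccl9 held an AP-1 match (6.75% of windows), an NF-kB match (45.8% of windows) and 3 TATA matches, 2 of which overlap, and Ccl6 held none of the 8 motifs. The interferon response, STAT, STAT6 and C/EBP patterns, present in 2.98%, 7.02%, 5.85% and 9.56% of windows, were in none of these 4 sequences. A match describes these letters and was not read as a site in use.

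The control library held 8994 barcodes and 95499107 UMIs and the IL4 library 13873 barcodes and 133151428 UMIs, with medians of 9156.5 and 8213 UMIs per barcode. The libraries shared 23 barcode sequences. Barcodes with Xist and no Y-linked UMI numbered 4296 and 10058, and those with Y-linked and no Xist UMI 2497 and 1227, so the second kind made up 36.8% of the barcodes with 1 kind of transcript in the control library and 10.9% in the IL4 library. No doublet caller was applied, and 350 control and 646 IL4 barcodes with both lymphocyte and myeloid markers were set apart as mixed. The remaining barcodes were given a leukocyte type from their own marker UMIs, none of which came from the genes described. Macrophage-like barcodes numbered 2281 and 3318 and classical monocyte-like barcodes 2034 and 3333, while 29.6% and 30.1% of barcodes reached no type. All 10 macrophage markers, C1qa, C1qb, C1qc, Apoe and Mrc1 among them, stood at least 1.5-fold higher in the macrophage-like barcodes than elsewhere, and all 8 monocyte markers did in the monocyte-like barcodes. The gate used these same markers, so their higher level follows from it and lends the type names no further support. Over all types, 1353 control and 2278 IL4 barcodes lay close to the lead that the gate required over the next marker list. How many of these lay between the macrophage and monocyte lists was not counted.

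Levels are in CPM, a gene's UMIs divided by the UMI total of the type and scaled to counts-per-million, with exact 95% Poisson intervals, and shares of barcodes carry exact binomial (Clopper-Pearson) ones. Both cover counting error only. UMIs count molecules by their ends and were not scaled to gene length. In droplets, free RNA places UMIs in cells that do not make a transcript, so each level is set against that in T cell-like and NK cell-like barcodes, and a level at or below it was read as background. T cell-like and NK cell-like barcodes rich in macrophage or monocyte markers had been set apart as mixed, but neutrophil-like and dendritic cell-like ones had not. In the control library the macrophage markers summed to 138 and 167 CPM in T cell-like and NK cell-like barcodes. They summed to 1019 CPM in neutrophil-like and 757 CPM in plasmacytoid dendritic cell-like ones. How much of the levels in those types was carried-over RNA was not tested. In the control library, T cell-like (0.36 to 0.88) and NK cell-like barcodes (0.35 to 0.91) both held 0.57 Ccl7 UMIs per Ccl2 UMI. The ratio was also 0.57 in macrophage-like barcodes. Both intervals included the ratios of neutrophil-like (0.50) and conventional dendritic cell type 1-like barcodes (0.50) as well. In the IL4 library the ratio was 0.70, 0.61 and 0.76 in T cell-like, NK cell-like and macrophage-like barcodes. For Ccl9 per Ccl2 UMI it was 0.72, 0.57 and 0.41 in that order in the control library and 0.39, 0.37 and 0.27 in the IL4 library. Which cells these UMIs came from was not tested.

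Ccl2 was the most widely detected of the Ccr2 ligands and was highest in macrophage-like barcodes, with 2126 CPM in the control library (2107 to 2144) and 2472 CPM in the IL4 library (2455 to 2490). Classical monocyte-like barcodes followed with 1796 and 1891 CPM. At least 1 Ccl2 UMI was present in 92.9% and 95.5% of macrophage-like and in 88.9% and 92.3% of monocyte-like barcodes. Next came neutrophil-like (664 and 429 CPM), non-classical monocyte-like (204.5 and 706 CPM) and plasmacytoid dendritic cell-like barcodes (479.8 and 399.8 CPM), whose order differed between the libraries. The other dendritic types held 225 to 339 CPM. T cell-like (61.8 and 91.1 CPM) and NK cell-like barcodes (62.9 and 88.3 CPM) were lowest, with B cell-like barcodes overlapping them (89.9 and 129.6 CPM). Of T cell-like barcodes, 41.1% and 42.6% had a Ccl2 UMI, at median depths of 6496 and 5691.5 UMIs against 9307 and 8211 in macrophage-like barcodes.

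Ccl7 and Ccl12 were more strongly tilted to macrophage-like barcodes than Ccl2. Ccl7 stood at 1207 CPM in the control and 1874 CPM in the IL4 macrophage-like barcodes and at 497 and 721 CPM in the monocyte-like ones. Neutrophil-like barcodes came next (334 and 207 CPM), above all dendritic types in both libraries, and T cell-like barcodes held 35.0 and 63.6 CPM. Ccl12 stood at 262 and 392 CPM in macrophage-like and at 95.1 and 127 CPM in monocyte-like barcodes. Plasmacytoid dendritic cell-like barcodes held 27.9 and 109 CPM of Ccl12, with only 33 and 115 barcodes, below the monocyte-like ones in the control library and with an overlapping interval (93.6 to 127) in the IL4 library. T cell-like barcodes, at 6.18 and 7.66 CPM, lay far below the monocyte-like ones. On the log2(CPM + 1) scale, with both libraries averaged, macrophage-like barcodes exceeded monocyte-like ones by 1.34 for Ccl7, by 1.55 for Ccl12 and by 0.32 for Ccl2.

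Ccl8 was nearly restricted to macrophage-like barcodes and to a minority of them. Its level was 135 CPM in the control macrophage-like barcodes (131 to 140) and 159 CPM in the IL4 ones (155 to 164), 10.4 times that of the next type, the neutrophil-like barcodes (12.5 and 15.9 CPM, from 12 and 6 UMIs). Monocyte-like barcodes held 5.45 and 8.28 CPM, T cell-like ones 3.09 and 9.95 CPM and NK cell-like ones 1.23 and 4.68 CPM. Ccl8 in monocyte-like barcodes was read as background, which rests on the T cell-like value of the IL4 library alone. B cell-like barcodes held 0 Ccl8 UMIs in either library, which allows up to 19.3 and 25.9 CPM (3 UMIs per library). Only 12.6% and 15.2% of macrophage-like barcodes had a Ccl8 UMI, yet those that did held a mean of 11.2 and 9.72 UMIs. The 10% of macrophage-like barcodes richest in Ccl8 held 98.2% and 96.5% of its UMIs. For Ccl2 the richest 10% held 44.9% and 40.03%, for Ccl7 55.2% and 46.0%, and for Ccl12 71.7% and 62.3%.

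Ccl6 and Ccl9, the Ccr1 ligands, were spread over the whole myeloid range. Of the 6 ligands described, Ccl6 had the highest level in the control macrophage-like barcodes, at 2539.7 CPM, against 1718 CPM in the IL4 ones. Monocyte-like barcodes held 1915 and 1670.5 CPM and neutrophil-like barcodes 1944 and 1478 CPM, and the order of these 3 types was not the same in the libraries. Neutrophil-like barcodes had 2.93 and 3.44 Ccl6 UMIs per Ccl2 UMI, against 1.19 and 0.69 in macrophage-like ones. NK cell-like barcodes held 90.1 and 67.5 CPM. Ccl9 stood at 871 and 672.5 CPM in macrophage-like and at 677 and 615 CPM in monocyte-like barcodes, higher in the macrophage-like ones within each library. Non-classical monocyte-like (332 and 222 CPM) and conventional dendritic cell type 2-like barcodes (218.1 and 218.4 CPM) came next, and T cell-like barcodes held 44.3 and 36.0 CPM.

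Ccr2, the receptor of Ccl2, Ccl7 and Ccl12, was highest in classical monocyte-like barcodes, whereas these ligands were highest in macrophage-like ones. Its level there was 547 CPM in the control library (537 to 558) and 451 CPM in the IL4 library (444 to 459). Macrophage-like barcodes followed at 362 and 270.2 CPM. NK cell-like (301 and 239.5 CPM), non-classical monocyte-like (262 and 229 CPM) and conventional dendritic cell type 2-like barcodes (268 and 222 CPM) were below them within each library, although the IL4 interval of the non-classical ones (179 to 289) included the macrophage-like value. NK cell-like barcodes held 4.78 and 2.71 Ccr2 UMIs per Ccl2 UMI, against 0.17 and 0.11 in macrophage-like ones. With every barcode thinned to 1000 UMIs, a Ccr2 UMI was present in 28.2% and 16.1% of NK cell-like barcodes (74.4% and 62.9% unthinned), in 25.6% and 20.2% of macrophage-like ones (75.2% and 67.8% unthinned) and in 7.14% and 8.95% of T cell-like ones (30.4% and 28.4% unthinned). Mature dendritic cell-like barcodes, which bear the lymph node homing receptor Ccr7, were low at 51.9 and 47.4 CPM, and B cell-like barcodes lowest at 12.8 and 25.9 CPM.

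Cx3cr1 had the lowest level of the receptors and was highest in non-classical monocyte-like barcodes, at 204.5 CPM (157 to 261) and 190.3 CPM (145 to 246). These were only 32 barcodes in each library. In them the non-classical monocyte markers summed to 1518 and 1422 CPM and the classical ones to 4943 and 5196 CPM. The cycling markers summed to 802 and 393 CPM, and how pure this type is was not tested. Macrophage-like (64.5 and 54.7 CPM) and neutrophil-like barcodes (50.1 and 58.3 CPM) came next and overlapped, and monocyte-like ones held 41.5 and 43.4 CPM. T cell-like barcodes held 34.0 and 42.9 CPM, which overlapped the monocyte-like level, whereas NK cell-like ones held 16.04 and 4.16 CPM. T cell-like barcodes had 0.55 and 0.47 Cx3cr1 UMIs per Ccl2 UMI, against 0.03 and 0.02 in macrophage-like ones. The source of the T cell-like UMIs was not tested. B cell-like barcodes held 0 UMIs in both libraries. Its annotated span overlaps 9 other genes, on both strands, so its counts are uncertain where transcripts overlap. Ccl2 likewise overlaps the minus-strand gene Gm17268, which held 30.7 and 46.6 CPM in macrophage-like barcodes, and Ccl6 overlaps the plus-strand E230016K23Rik.

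**Figure D1:**
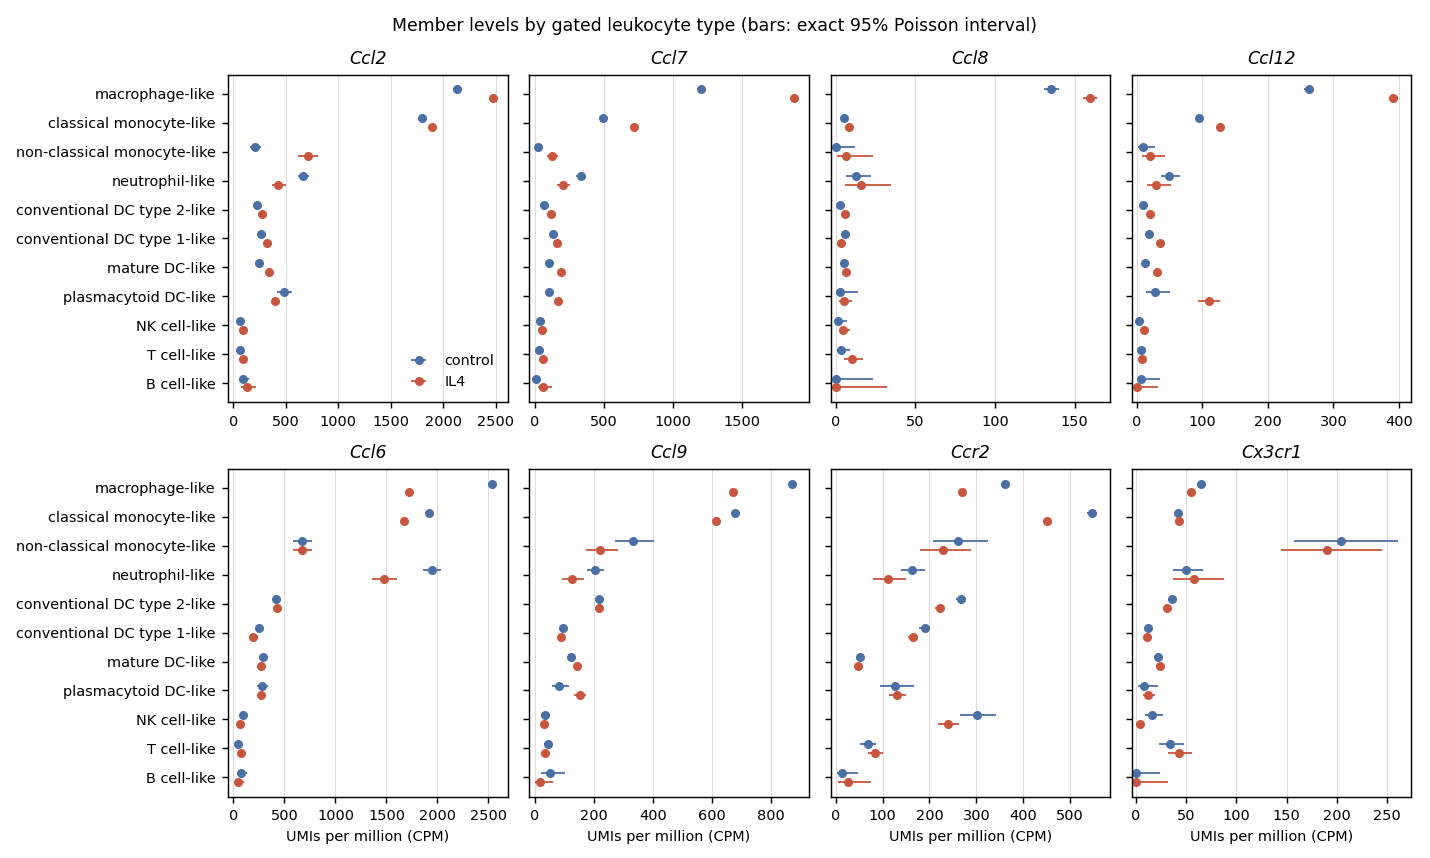
Level of each of the 8 genes in CPM (x axis, linear, a different range per panel) in 11 gated leukocyte types (y axis), control in blue and IL4 in red, 1 library each, with bars for the exact 95% Poisson interval. Ccl2, Ccl7, Ccl12 and Ccl8 were highest in macrophage-like barcodes, Ccr2 in classical monocyte-like barcodes (547 and 451 CPM) and Cx3cr1 in non-classical monocyte-like ones (204.5 and 190.3 CPM).

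Set against the whole transcriptome, 3 of the 8 genes (Ccl7, Ccl12 and Ccl8) were at least 1.5-fold higher in macrophage-like than in monocyte-like barcodes, where 6.22% of 15098 genes were, and 1 of 8 (Ccr2) was at least 1.5-fold lower, where 2.24% were. The log2 difference was 4.24 for Ccl8 and -0.66 for Ccr2. With clusters in place of gates it was 5.92 and -0.68, and it was 2.42 for Ccl7 and 3.30 for Ccl12. Ccl6, Ccl9, Ccl2 and Cx3cr1 differed by less than 1.5-fold between the gated types.

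The same opposition appeared when barcodes were ordered by the gate's own macrophage and monocyte markers, so this order is not independent of the gate. Which barcodes entered was also limited by their gated type. Barcodes with at least 10 UMIs in the macrophage and classical monocyte markers (6227 control, 9597 IL4) were ordered by the macrophage share of those UMIs, in 5 bins of 20 percentage points with 1046 to 1318 control and 1859 to 2026 IL4 barcodes each. From the most monocyte-marked to the most macrophage-marked bin, Ccr2 stepped down in every bin, from 488 to 344 CPM in the control and from 409 to 229.7 CPM in the IL4 library. Ccl7 stepped up in every bin, from 212 to 1211 CPM and from 301 to 1957 CPM. Ccl12 went from 58.4 to 269 CPM and from 59.6 to 377 CPM. Ccl8 stood at 2.83 to 32.8 CPM over the first 4 control bins and reached 207 CPM in the last, and in the IL4 library it reached 226 CPM. Ccl2 was already at 1178 and 1090.4 CPM in the first bin and reached 2049 and 2544 CPM in the last. Ccl6 and Ccl9 were highest in the last bin of the control library (2504 and 836 CPM), whereas in the IL4 library their highest values, 1793 and 669.8 CPM, were in the bin of 60 to 80% macrophage share.

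**Figure D2:**
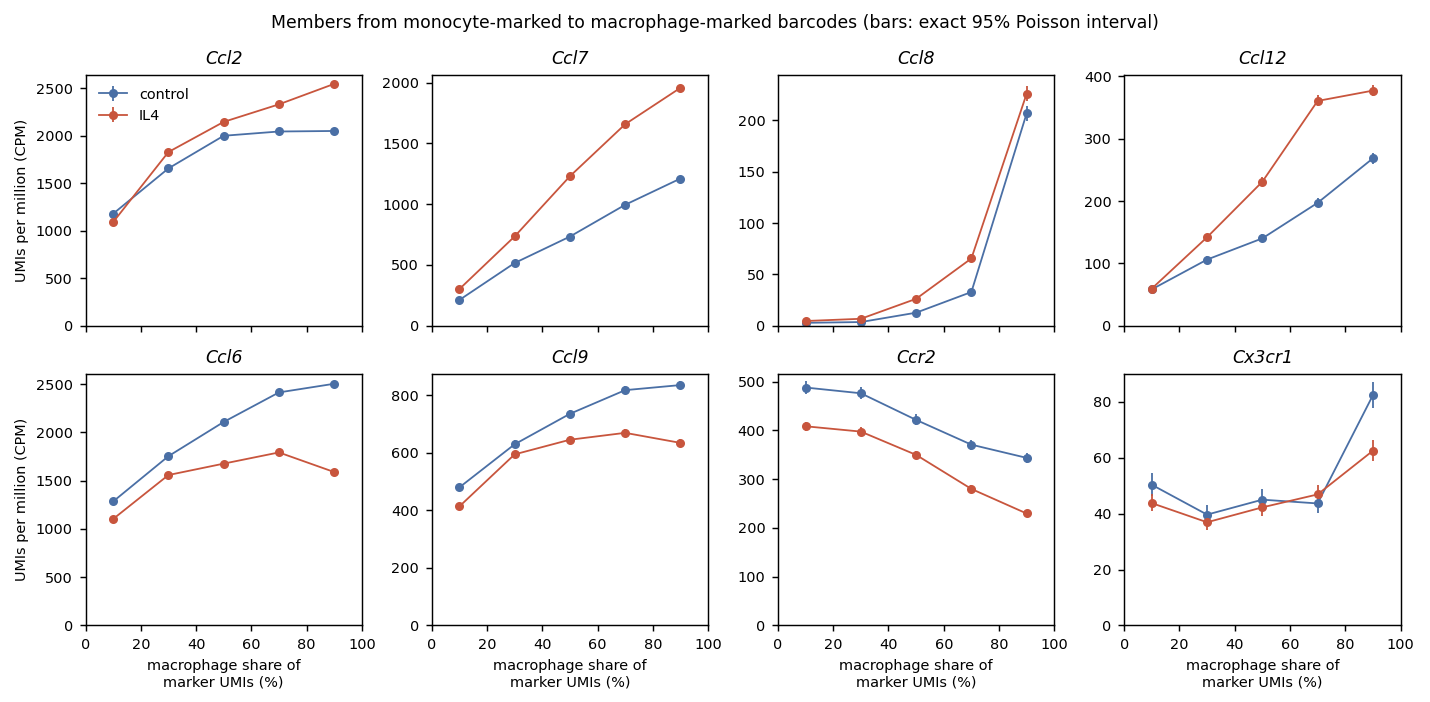
Level of each gene in CPM (y axis, linear from 0) against the macrophage share of macrophage and monocyte marker UMIs (x axis, percent, 5 bins), control in blue and IL4 in red, bars for the exact 95% Poisson interval. Ccr2 steps down from left to right (488 to 344 CPM in the control), Ccl7 and Ccl12 step up, and Ccl8 is confined mostly to the last bin (207 and 226 CPM).

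Within types, the Ccr2 ligands shared barcodes. Among control macrophage-like barcodes thinned to 1000 UMIs, Ccl7 was present in 53.4% (50.8 to 56.0%) of those with a Ccl2 UMI and in 23.6% (20.8 to 26.7%) of those without, and Ccl12 in 18.8% and 9.18%. In the IL4 library the shares for Ccl7 were 68.4% and 30.9%. Monocyte-like barcodes showed the same with lower shares: Ccl7 was present in 27.5% of control barcodes with Ccl2 and in 9.10% without, and in 37.8% and 14.0% in the IL4 library. Ccl8 did not follow Ccl2: it was present in 4.87% of control macrophage-like barcodes with a Ccl2 UMI and in 5.18% of those without, and in 5.56% and 4.45% in the IL4 library. Ccl9 was present in 55.3% of control macrophage-like barcodes with Ccl6 and in 27.0% without, and in 51.9% and 30.4% in the IL4 library.

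Between the libraries, the ligands of the Ccl2 locus were higher and the Ccr1 ligands and Ccr2 lower in the IL4 macrophage-like barcodes. Ccl7 had the largest ratio at 1.55-fold (1.53 to 1.58), followed by Ccl12 at 1.49-fold (1.45 to 1.54), while Ccl8 (1.18-fold, 1.13 to 1.23) and Ccl2 (1.16-fold, 1.15 to 1.18) differed less. Ccl6 was 1.48-fold lower in the IL4 library (1.46 to 1.496), Ccr2 1.34-fold lower (1.30 to 1.38), Ccl9 1.30-fold lower (1.27 to 1.32) and Cx3cr1 1.18-fold lower (1.10 to 1.26). At 1.5-fold on the log2(CPM + 1) scale, 1 of the 8 genes (Ccl7) was higher, where 3.09% of 14023 genes were, and 0 were lower, where 2.52% were (2.07% and 1.71% of genes with no UMI minimum). The median log2 difference was -0.01 over the 8 genes and -0.06 over all genes. Fewer UMIs per cell and fewer expressing cells both lower a summed level. The share of thinned barcodes with a UMI also depends on both, so it cannot separate them. After thinning, Ccl7 was present in 42.2% of control and 57.9% of IL4 macrophage-like barcodes, Ccl12 in 15.2% and 22.6%, Ccl6 in 71.9% and 61.9% and Ccr2 in 25.6% and 20.2%.

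In classical monocyte-like barcodes the directions were alike apart from Cx3cr1, and the ratios were smaller but for Ccl8. Ccl7 was 1.45-fold (1.42 to 1.48) and Ccl12 1.33-fold (1.26 to 1.41) higher in the IL4 library, and Ccl2 1.05-fold. Ccr2 was 1.21-fold lower (1.18 to 1.24), Ccl6 1.15-fold lower and Ccl9 1.10-fold lower, and the interval for Cx3cr1 (0.96 to 1.14) included 1. On the log2(CPM + 1) scale, 0 of the 8 genes passed 1.5-fold in either direction, where 2.72% of 13510 genes were higher and 1.6% lower (1.83% and 1.08% with no UMI minimum), and the median was 0.07 over the 8 genes and -0.02 over all genes. Ccl8 was 1.52-fold higher (1.21 to 1.91) without the pseudocount, at low levels read as background (5.45 and 8.28 CPM).

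The marker content of the macrophage-like barcodes also differed. The summed level of the 10 macrophage markers was 8702 CPM in the control and 9097 CPM in the IL4 library and that of the 8 monocyte markers 2185 and 2311 CPM. The 10 T cell markers summed to 46.1 and 110.9 CPM, the 10 NK cell markers to 28.3 and 61.8 CPM and the 10 neutrophil markers to 142 and 108 CPM, with 0 of each list undetected. Clusters also took different shares of the gate. In the control library, 23.2% of macrophage-like barcodes lay in cluster 10 (led by Cbr2, Gas6 and Folr2), 18.8% in cluster 4 (Arg1, Egln3) and 14.8% in cluster 1 (Cxcl1, Il1a). In the IL4 library, 28.2% lay in cluster 1, 22.1% in cluster 7 (Ms4a7, Cxcl9, C1qa), 11.5% in cluster 6 (Cmpk2, Ifit3) and 8.11% in cluster 10. With each control cluster given the weight it had in the IL4 library, an alternative chosen after seeing the data, the macrophage-like log2 difference was 0.54 for Ccl7 (0.63 unweighted), 0.40 for Ccl12 (0.58), 0.56 for Ccl8 (0.24), 0.15 for Ccl2 (0.22), -0.20 for Ccl6 (-0.56), -0.07 for Ccl9 (-0.37), -0.27 for Ccr2 (-0.42) and -0.02 for Cx3cr1 (-0.23). Every difference but that in Ccl8 was thus smaller in size with this weighting, and that in Ccl8 was larger.

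Clusters, made without the 8 genes, showed where each ligand was most abundant. Cluster 10, whose leading genes Cbr2, Folr2 and Gas6 are those of resident-type macrophages, held the most Ccl8, at 290 CPM in the control (669 barcodes) and 752 CPM in the IL4 library (342 barcodes), 2.60-fold higher (2.44 to 2.76). In this cluster Ccl7 went from 1185 to 2806 CPM (2.37-fold, 2.30 to 2.44), Ccl12 from 349 to 784 CPM (2.24-fold, 2.12 to 2.38) and Ccl2 from 1831 to 3161 CPM (1.73-fold, 1.68 to 1.77). At 1.5-fold on the log2(CPM + 1) scale, 4 of the 8 genes were thus higher in the IL4 library here, where 3.17% of 10944 genes were, and 1 was lower, Cx3cr1 (101 and 65.3 CPM), where 14.6% were. The median log2 difference over all genes in this cluster was -0.16. No other cluster was set against all genes in this way, so the count does not speak for the clusters in general. Ccl6, at 3673 and 3269 CPM, was 1.12-fold lower. Cluster 7, the C1q-rich macrophages, differed: Ccl7 went from 1311 to 2091 CPM, but Ccl8 from 183 to 154 CPM.

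Cluster 6, led by the interferon-induced genes Cmpk2, Ifit3 and Rsad2, had the highest control levels of Ccl12, at 554 CPM, and of Ccl2, at 3192 CPM. In the IL4 library it held 512 and 2800.3 CPM, and Ccl8 went from 12.7 to 63.7 CPM. Cluster 1 held similar Ccl2 in both libraries (2741 and 2760.5 CPM) and more Ccl7 in the IL4 library (1176 and 1668 CPM). Ccl7 and Ccl12 were lowest in the monocyte cluster 2, led by Hp and Chil3 (274 and 376 CPM of Ccl7, 37.8 and 48.3 CPM of Ccl12), and in cluster 16, led by Retnla and Ear2 (355 and 356 CPM, 21.97 and 46.6 CPM), among the 8 myeloid clusters plotted. Cluster 2 also held the most Ccr2 of all 19 clusters in the control library (599 CPM), whereas in the IL4 library cluster 5, led by Ccl24 and Spp1, did (551 CPM against 509 CPM).

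**Figure D3:**
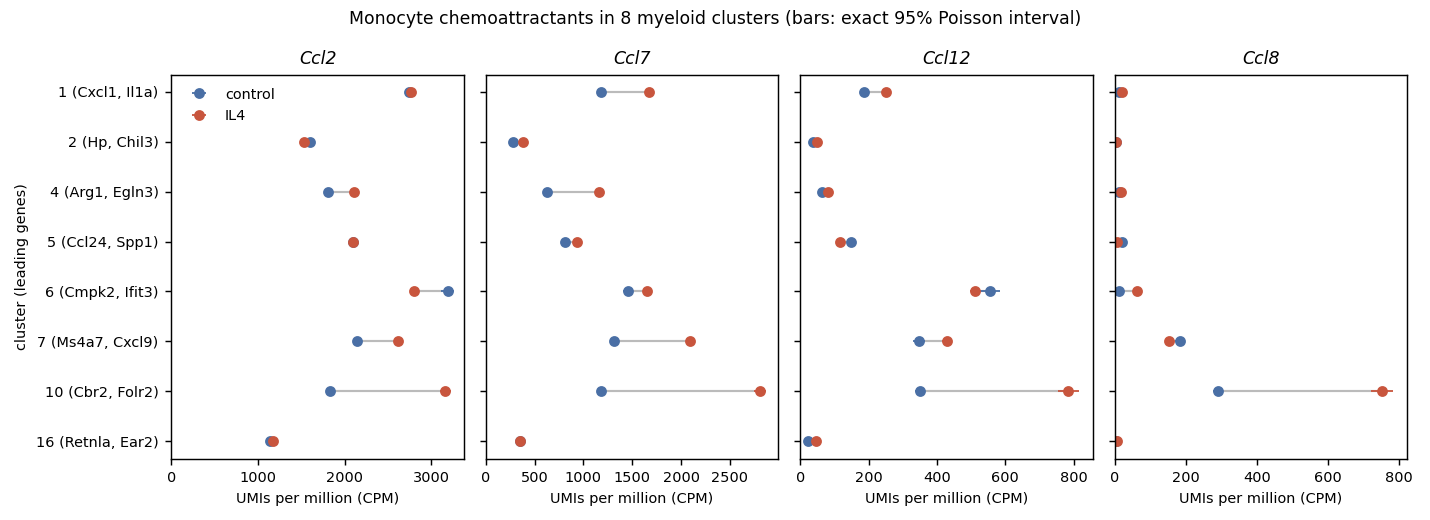
Levels of Ccl2, Ccl7, Ccl12 and Ccl8 in CPM (x axis, linear from 0) in 8 myeloid clusters named by leading genes (y axis), control in blue and IL4 in red, joined by a line, with bars for the exact 95% Poisson interval. In cluster 10 all 4 genes are higher in the IL4 library (Ccl8 290 and 752 CPM), while in cluster 6 Ccl12 is not (554 and 512 CPM).

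Because Y-positive barcodes were rarer in the IL4 library, the ratios were taken within each kind of barcode. In Xist-only macrophage-like barcodes (1208 control, 2557 IL4) the log2 difference was 0.88 for Ccl7, 0.63 for Ccl12, 0.38 for Ccl2 and -0.55 for Ccl6. In Y-only ones (597 and 273 barcodes) it was 0.30, 0.24, 0.13 and -0.38 in that order. Directions were the same and the differences were smaller in Y-only barcodes. Ccl8 was the exception: it went from 156 to 176 CPM in Xist-only and from 117 to 56.4 CPM in Y-only macrophage-like barcodes, the last from 153 UMIs in 23 positive barcodes. Ccr2 was lower in the IL4 library in both kinds (-0.43 and -0.36). In monocyte-like barcodes Ccl7 was higher in both kinds (0.78 and 0.41) and Ccl6 lower in both (-0.07 and -0.49).

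**Figure D4:**
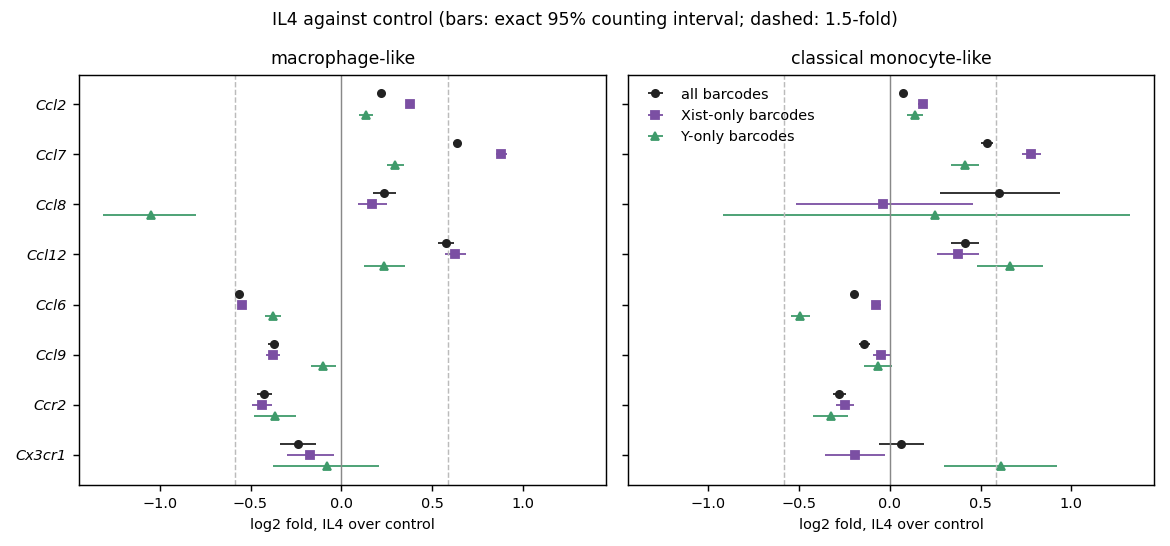
Log2 fold of IL4 over control CPM without a pseudocount (x axis) for each gene (y axis) in macrophage-like (left) and classical monocyte-like barcodes (right), for all barcodes, Xist-only barcodes and Y-only barcodes, with bars for exact 95% counting intervals and dashed lines at 1.5-fold. Ccl7 and Ccl12 lie right of 0 and Ccl6 and Ccr2 left of it in every subset drawn, whereas Ccl8 in Y-only macrophage-like barcodes lies left of 0 (117 and 56.4 CPM).

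Other types followed in part. In conventional dendritic cell type 2-like barcodes 3 of the 8 genes were at least 1.5-fold higher, where 3.43% of genes were: Ccl7 (68.1 and 122 CPM), Ccl12 (9.47 and 19.4 CPM) and Ccl8 (2.74 and 5.65 CPM). The Ccl8 values lay below those of T cell-like barcodes in both libraries and were read as background, although NK cell-like ones were lower (1.23 and 4.68 CPM). None of the 8 was lower, where 4.66% of genes were. In mature dendritic cell-like barcodes 2 of 8 were higher, where 4.89% of genes were: Ccl7 (103 and 188 CPM) and Ccl12 (12.2 and 30.5 CPM), and 0 were lower, where 6.21% were. In T cell-like barcodes, whose Ccl7 was read as background, Ccl7 was also 1.82-fold higher, the 1 gene of 6 measured past 1.5-fold, where 9.4% of genes were, and 0 were lower, where 7.23% were. The part of background RNA in the dendritic cell values was not tested. In NK cell-like barcodes 1 of 7 measured was higher, Ccl12 (3 and 20 UMIs), where 7.62% of genes were, and 1 lower, Cx3cr1 (13 and 8 UMIs, 16.04 and 4.16 CPM), where 10.6% were. Neutrophil-like barcodes went the other way. Of the 7 genes with at least 20 UMIs there, 4 were at least 1.5-fold lower in the IL4 library (Ccl2, Ccl7, Ccl12 and Ccl9), where 16.4% of genes were, and 0 were higher, where 11.1% were, from 220 and 106 barcodes. Over all kept barcodes 1 of 8, Ccl7 (563 and 861 CPM), was higher, where 1.01% of genes were, and 0 were lower, where 0.983% were.

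The wider pathway was described from lists of 14 other CC chemokines, 14 other receptors and decoys, 13 coupling genes and 14 genes of monocyte adhesion and traffic. Of 11 other CC chemokines with at least 20 UMIs in macrophage-like barcodes, 3 were at least 1.5-fold higher and 1 lower in the IL4 library, where 3.09% and 2.52% of all genes were. Ccl5 (202 and 531 CPM) and Ccl4 (3004 and 5800 CPM) were higher, as was the scarce Ccl1 (0.25 and 2.50 CPM). Ccl24, an eotaxin that acts on Ccr3, was lower (216 and 71.9 CPM). In monocyte-like barcodes 5 of 10 were higher and 1 lower, where 2.72% and 1.6% of all genes were. The list's median log2 difference was 0.57 there and 0.33 in macrophage-like barcodes, beside -0.02 and -0.06 over all genes.

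The other lists are read against the same shares of all genes, 3.09% higher and 2.52% lower in macrophage-like and 2.72% and 1.6% in monocyte-like barcodes. Of 7 other receptors and decoys measured in macrophage-like barcodes, 0 were higher and 1 lower, the scavenging receptor Ackr3 (3.11 and 0.78 CPM). Ccr1, the receptor of Ccl6 and Ccl9, stood at 148 and 112 CPM in macrophage-like barcodes and was highest in neutrophil-like ones (734 and 694 CPM). Of 13 coupling genes, 0 were higher and 1 lower, Arrb1 (40.7 and 24.6 CPM), which encodes a beta-arrestin that shuts off receptor signalling, and Rgs1, a regulator of G protein signalling, stood at 770.4 and 1060.3 CPM. Of 13 measured adhesion and traffic genes, 1 was higher, Spn (3.36 and 6.79 CPM), and 1 lower, the lymphoid exit receptor S1pr1 (6.59 and 3.995 CPM). In monocyte-like barcodes the counts were 0 and 0 of 6 receptors, 0 and 0 of 13 coupling genes, and 0 higher and 1 lower of 14 traffic genes, the macrophage growth factor Csf1 (33.6 and 17.9 CPM).

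The genes whose levels ran most like each of the 8 were sought over 22 profiles, 11 types in each of 2 libraries, by Pearson's r of log2(CPM + 1) among 5811 genes. The profiles share libraries and background RNA, so r is a description. Nearest to Ccl2 were the amino acid transporter Slc7a8 (r = 0.95) and the scavenger receptor Msr1 (0.94), nearest to Ccl7 were Cxcl1 (0.92) and Arg1 (0.90), and nearest to Ccl12 the complement receptor C3ar1 (0.96). Ccl8 was nearest to Ms4a7 (0.90) and Pf4 (0.86), both of which are markers of the macrophage gate. Ccl6 was nearest to the ferritin light chain gene Ftl1 (0.96) and Fcgr3 (0.96), Ccl9 to the fibronectin gene Fn1 (0.96), Ccr2 to the inflammasome adaptor gene Pycard (0.92) and Cx3cr1 to Clip1 (0.91). Among the 8 genes, Ccl6 and Ccl9 were the most alike pair (0.92), followed by Ccl2 and Ccl7 (0.90), and Ccl8 and Ccr2 the least (0.42).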

How the data were processed

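Droplet single-cell RNA sequencing of 2 libraries was analysed from the authors' deposited matrices of raw UMI counts, made with Cell Ranger 7.2.0 on mm10 per the submitters' processing notes; which annotation was used is not given in the sources used. Barcodes with at least 500 UMIs and 250 genes were kept if no more than 10% of UMIs were mitochondrial (8937 control, 13762 IL4). The 8 genes and all gene lists were chosen with earlier results of these data known.

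A barcode took the type with the largest share of markers detected, if that was at least 50% and led the next list by 10 percentage points. T, NK and B cell barcodes with at least 30% of macrophage or monocyte markers were set apart as mixed. Clusters used 2000 variable genes without the 8 genes, 30 principal components, 15 neighbours and Leiden resolution 1 (scanpy 1.11.5, leidenalg 0.10.2). A cluster or type was named from at least 3 markers. UMIs were summed per type and library and scaled to the type's total, with exact intervals (scipy 1.17.1). Log2 differences used CPM plus 1, and a gene counted at 1.5-fold with at least 20 UMIs over both libraries. Counts of UMIs thinned to 1000 per barcode were used for shares. The scripts were tested on simulated data.

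Genes named were all 8 in every type, the 4 most like each by correlation among genes of at least 50 CPM in their highest type (nearest ones printed), and up to 4 with the largest difference from each of the 4 pathway lists. Gene positions came from GENCODE's GRCm38 annotation. Alternatives were another scaling, pseudocount, gate, filter and fold, clusters in place of gates, Xist-only or Y-only barcodes, equal weight per barcode, thinning, and leaving out shared barcodes. Barcodes with no type and 5 mast cell-like barcodes were not described.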

Additional observations from a re-analysis of the deposited data

Results flagged for a closer look

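Ccl8 in macrophage-like barcodes went in opposite directions in barcodes with Xist only and in those with Y-linked transcripts only. The IL4 minus control log2 difference was 0.17 in Xist-only barcodes (156 and 176 CPM, 1.13-fold, 1.07 to 1.19) and -1.04 in Y-only barcodes (117 and 56.4 CPM, 2.07-fold lower, 1.74 to 2.48). The Y-only IL4 value rests on 23 positive barcodes. The difference between the 2 kinds of barcode was not tested.

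Cx3cr1 in classical monocyte-like barcodes likewise differed in sign, at -0.19 in Xist-only barcodes (48.6 and 42.5 CPM) and 0.60 in Y-only barcodes (35.6 and 54.4 CPM, 1.53-fold, 1.23 to 1.90). This difference was not tested either.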

How the results depend on the processing

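With 1 library per group, each value is a description whose interval covers counting error only. In macrophage-like barcodes Ccl7, Ccl12, Ccl2, Ccl6, Ccl9, Ccr2 and Cx3cr1 kept their direction under all 11 alternatives, with log2 differences of 0.30 to 0.88 for Ccl7, 0.24 to 0.75 for Ccl12, -0.53 to -0.27 for Ccr2 and -0.38 to -0.02 for Cx3cr1. Ccl8 turned to -1.04 in Y-only barcodes. In monocyte-like barcodes Ccl2 turned to -0.068 with clusters in place of gates and to -0.057 with control clusters weighted to the IL4 cluster shares (an alternative chosen after seeing the data), Ccl8 to -0.062 with a stricter gate and -0.033 in Xist-only barcodes, Ccl12 to -0.19 with weighted clusters and Cx3cr1 to -0.19 in Xist-only barcodes. The cause was not tested. The count of genes higher in macrophage-like barcodes, 1, became 2 with median-of-ratios scaling, a stricter gate, Xist-only barcodes, equal weight per barcode and thinning, and 0 in Y-only barcodes, with weighted clusters and at a fold of 2. The count lower, 0, became 1 with clusters, a stricter gate and Y-only barcodes. The count higher in monocyte-like barcodes, 0, became 1 with a pseudocount of 0.1, in Xist-only barcodes and with equal weight per barcode, and 2 in Y-only barcodes and with thinning. The share of all genes past the fold was not taken under the alternatives that changed these counts. Whether such changes are particular to the genes described was therefore not tested. Median-of-ratios scaling moved all log2 differences up by 0.07 in macrophage-like and 0.03 in monocyte-like barcodes. Levels in types of under 50 barcodes have wide intervals.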
